A study of Mus musculus with 30 samples.

Results

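Clustered Zfp genes were taken as the genes whose symbol is Zfp followed by a digit and whose start lies within 200000 bp of the start of another such gene on the same chromosome. Zfp352, Zfp42 and Zfp36 were left out by the same rule. Of the 20541 genes in the deposited table, 217 met it, and the 147 Zfp genes with no such neighbour served as their comparison. Close to the limit, Zfp947, Zfp938 and Zfp629 were inside at 181800, 176733 and 164899 bp, and Zfp414, Zfp512 and Zfp513 were outside at 248913, 253455 and 253455 bp. A mean of at least 10 scaled reads over the 15 libraries was reached by 213 of the 217, which were tested. The other 4 were Zfp663, Zfp575, Zfp97 and Zfp92, of which Zfp97 was highest at 7.29 scaled reads at 0 h.

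The libraries came from mouse embryonic stem cells of the line dTKO, grown in serum with LIF. Every group carries the same genotype, Suv39h1fl/fl, Suv39h2-/- and Setdb1fl/fl, and differs only in the hours after auxin (100 µg/ml) and dTAG13 (0.5 µM) were added to the medium: 3, 12, 24 or 48 h, with 0 h as the baseline. Auxin and dTAG13 are ligands that cause tagged proteins to be degraded, and the series asks how transcription changes when histone H3 lysine 9 methyltransferases are lost. The labels do not say which protein each ligand acts on, nor whether the line is 1 clone, and the comparisons here have no untreated cells at later times, so treatment and time in culture cannot be told apart. The assay was TT-seq: cells took up 1 mM 4-thiouridine for 10 min, and the RNA that carried it, made in that window, was pulled down and sequenced. There were 3 libraries per time, given as biological repeats and each read in 2 sequencing runs. The p-values below measure the spread between these libraries.

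Most Zfp genes encode C2H2 zinc finger proteins, many of which also carry a KRAB domain. The rule goes by symbol, so it also takes in the pseudogene Zfp862-ps and the genes Zfp652os and Zfp85os, which had no coding transcript. Zfp652 is a member only through Zfp652os beside it. KRAB zinc finger proteins bind DNA, often within transposable elements, and recruit the co-repressor TRIM28, which brings in the methyltransferase SETDB1 and so leads to histone H3 lysine 9 trimethylation (H3K9me3). The genes lie in tandem arrays that grew by duplication. In human cells the 3′ ends of such genes are themselves known to carry H3K9me3, so the arrays are both a source of SETDB1 recruiters and a known place of its mark.

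The deposited values are reads divided by 1 factor per library, called scaled reads below, and 1 read was worth 0.636 to 0.936 scaled reads. Libraries held 37.1 to 42.3 M reads (M, mega) over all units and 16.4 to 22.9 M over genes without the ribosomal RNA gene Rn45s. The ES cell markers were present, with Pou5f1 at 974 and Nanog at 1755 scaled reads at 0 h. The sum of 15 ES cell markers lay between 15398 and 16358 at 48 h, against 26107 to 29071 at 0 h, and 14 of them fell, or 13 after rescaling over genes (explained below). The sum of 19 markers of 2-cell-like cells lay between 2311 and 2744 at 48 h, against 84.5 to 92.3 at 0 h, with no marker of it listed at 0 in all libraries. The sum of 8 fibroblast markers lay between 457 and 617 at 48 h, against 359 to 448 at 0 h. Sums of the trophectoderm, primitive endoderm and neural lists were 1284 to 1575, 1602 to 1790 and 772 to 861 at 48 h, against 1118 to 1138, 2153 to 2436 and 1132 to 1238 at 0 h. Of their 6, 7 and 4 tested markers 3, 0 and 1 rose and 3, 2 and 1 fell at 48 h, or 3, 4 and 1 rose and 1, 2 and 1 fell after rescaling. Single genes carried much of these sums, with Krt8 at 472 against 287, Krt18 at 400 against 199, Lama1 at 274 against 905 and Tubb3 at 296 against 688 scaled reads, at 48 h against 0 h. In these bulk libraries fewer cells of a type and less RNA per cell cannot be told apart, and the part of such cells in the changes below was not tested. Setdb1 had 732 scaled reads at 48 h and 846 at 0 h, and Suv39h1 had 455 at 48 h and 483 at 0 h, which checks nothing, because the ligands act on protein.

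The 217 members form 49 genomic clusters on 15 chromosomes. Of these clusters 24 are pairs and 5 hold 10 or more genes, the largest being 24 genes on chromosome 13. Chromosome 7 carries 75 members, chromosome 17 carries 34 and chromosome 13 carries 28. At 0 h the tested members had a median of 20.7 scaled reads per kb of gene, against 31.2 for the 135 tested unclustered Zfp genes and 16.7 for all 15261 genes tested. The highest were Zfp936 at 252, Zfp961 at 233 and Zfp553 at 186 scaled reads per kb, and the lowest was Zfp872 at 0.438.

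The proteins differ from those of unclustered Zfp genes in ways the rule did not use. Translation of annotated transcripts gave a median of 12 C2H2 fingers in 211 clustered members, against 7 in 144 unclustered Zfp genes. The conserved core of the KRAB box was matched in 133 of the 211, which is 63.0%, against 28 of the 144, which is 19.4%. No match says only that this core is not in the transcript used. Shared sequence also limits the measurement. In 48 members at least 10% of the 50-base stretches of the transcripts occur in a transcript under another gene name, and in 9 members at least 50% do. Zfp935, Zfp781 and Zfp708, with 100%, 96.3% and 94.9% of their stretches shared, and the untested Zfp97 with 81.3%, are therefore uncertain, since the sources used here do not say how reads mapping to several places were counted. Duplicates were not told apart from overlapping genes, such as Rslcan18, which overlaps Zfp708 on the same strand. The transcripts are spliced, so most intron sequence was not compared. The members with the largest rises, Zfp872, Zfp677 and Zfp560, shared 0%, 0.0363% and 0%.

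The promoters of clustered members hold few CpG dinucleotides. In the 250 bases before the start (RefSeq, GRCm38.p6), 181 tested members with an entry had a median of 9 CpG, against 14 in 105 unclustered Zfp genes and 15 in 11404 of all genes tested. The motif GGGCGG, on either strand and itself holding a CpG, was found in 31.5% of clustered members, 55.2% of unclustered Zfp genes and 58.7% of all genes. The motif CCAAT, on either strand and not overlapping in letters with it, was found in 49.2%, 41.9% and 36.4%. Among the 11 members called higher at 48 h below, the 9 with an entry had a median of 15 CpG, and the 103 with an entry that were called lower had 9. These matches are letters in a window and say nothing of which factor binds. The promoters of 3 members that rose most and 3 that fell are shown 5′ to 3′ in the direction of the gene, with every CpG in capitals, so that the spread of CpG between members can be read. They lie at chr9:22187916-22188165 (plus strand, 15 CpG) for Zfp872, chr17:21383498-21383747 (plus, 10 CpG) for Zfp677, chr9:20385159-20385408 (minus, 19 CpG) for Zfp560, chr6:117862631-117862880 (plus, 6 CpG) for Zfp239, chr7:43606919-43607168 (plus, 17 CpG) for Zfp819 and chr13:67421419-67421668 (minus, 8 CpG) for Zfp459.
Zfp872: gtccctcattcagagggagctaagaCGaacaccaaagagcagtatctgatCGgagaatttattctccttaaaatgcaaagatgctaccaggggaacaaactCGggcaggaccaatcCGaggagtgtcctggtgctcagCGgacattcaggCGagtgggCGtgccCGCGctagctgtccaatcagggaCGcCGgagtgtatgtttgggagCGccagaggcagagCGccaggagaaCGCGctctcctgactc
Zfp677: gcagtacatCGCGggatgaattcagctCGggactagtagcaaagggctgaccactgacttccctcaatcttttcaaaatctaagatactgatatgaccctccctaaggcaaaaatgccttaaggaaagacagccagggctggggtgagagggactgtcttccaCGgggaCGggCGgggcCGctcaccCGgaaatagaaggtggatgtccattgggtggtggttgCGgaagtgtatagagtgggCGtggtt
Zfp560: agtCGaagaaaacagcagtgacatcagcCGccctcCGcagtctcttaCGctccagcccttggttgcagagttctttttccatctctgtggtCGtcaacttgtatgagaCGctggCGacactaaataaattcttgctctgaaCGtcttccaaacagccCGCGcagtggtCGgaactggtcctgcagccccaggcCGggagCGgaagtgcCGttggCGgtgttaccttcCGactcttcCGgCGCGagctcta
Zfp239: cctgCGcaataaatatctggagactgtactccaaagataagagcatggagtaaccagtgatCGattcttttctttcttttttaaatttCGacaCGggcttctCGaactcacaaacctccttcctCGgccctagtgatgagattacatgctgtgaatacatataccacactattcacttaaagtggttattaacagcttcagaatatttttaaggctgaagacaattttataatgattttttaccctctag
Zfp819: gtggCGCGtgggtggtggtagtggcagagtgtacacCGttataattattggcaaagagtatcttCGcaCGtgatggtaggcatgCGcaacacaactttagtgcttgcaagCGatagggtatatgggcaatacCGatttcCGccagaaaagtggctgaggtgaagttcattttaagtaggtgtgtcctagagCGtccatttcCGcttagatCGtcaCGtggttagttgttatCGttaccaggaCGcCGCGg
Zfp459: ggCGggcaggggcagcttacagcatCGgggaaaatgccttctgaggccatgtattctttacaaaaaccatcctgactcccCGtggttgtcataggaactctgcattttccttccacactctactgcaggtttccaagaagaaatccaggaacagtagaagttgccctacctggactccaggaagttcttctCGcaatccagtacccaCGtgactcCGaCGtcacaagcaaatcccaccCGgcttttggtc
The motif GGGCGG was found in the windows of Zfp677 and Zfp560 and CCAAT in those of Zfp872, Zfp677 and Zfp819. Zfp819, which fell, holds more CpG than Zfp677, which rose. The window of Zfp239 ends 196 bp from the start that the deposited table gives.

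The question of the comparisons is how each member's nascent RNA at a later time differs from 0 h. Each change is a difference of log2(scaled reads + 1) from limma with Benjamini-Hochberg adjustment over all 15261 genes, and a member was called at an adjusted p under 0.05. The scale of the whole table moved between times: the median change of all genes tested was -0.24, 0.18, -0.08 and -0.37 at the 4 later times in order. Clustered members had medians of -0.17, 0.23, -0.02 and -0.34, and unclustered Zfp genes had -0.24, 0.22, -0.03 and -0.29. The design text says that spiked-in yeast RNA serves to adjust signal across times, so a shift of all genes can be part of the measurement. Changes are also given after rescaling, in which 1 factor per library sets the typical gene to no change. After it the medians of clustered members were 0.06, 0.05, 0.05 and 0.02, and those of all genes lay within 0.01 of 0. Whether the deposited factor or the rescaled one is nearer to RNA per cell was not tested.

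**Figure D1:**
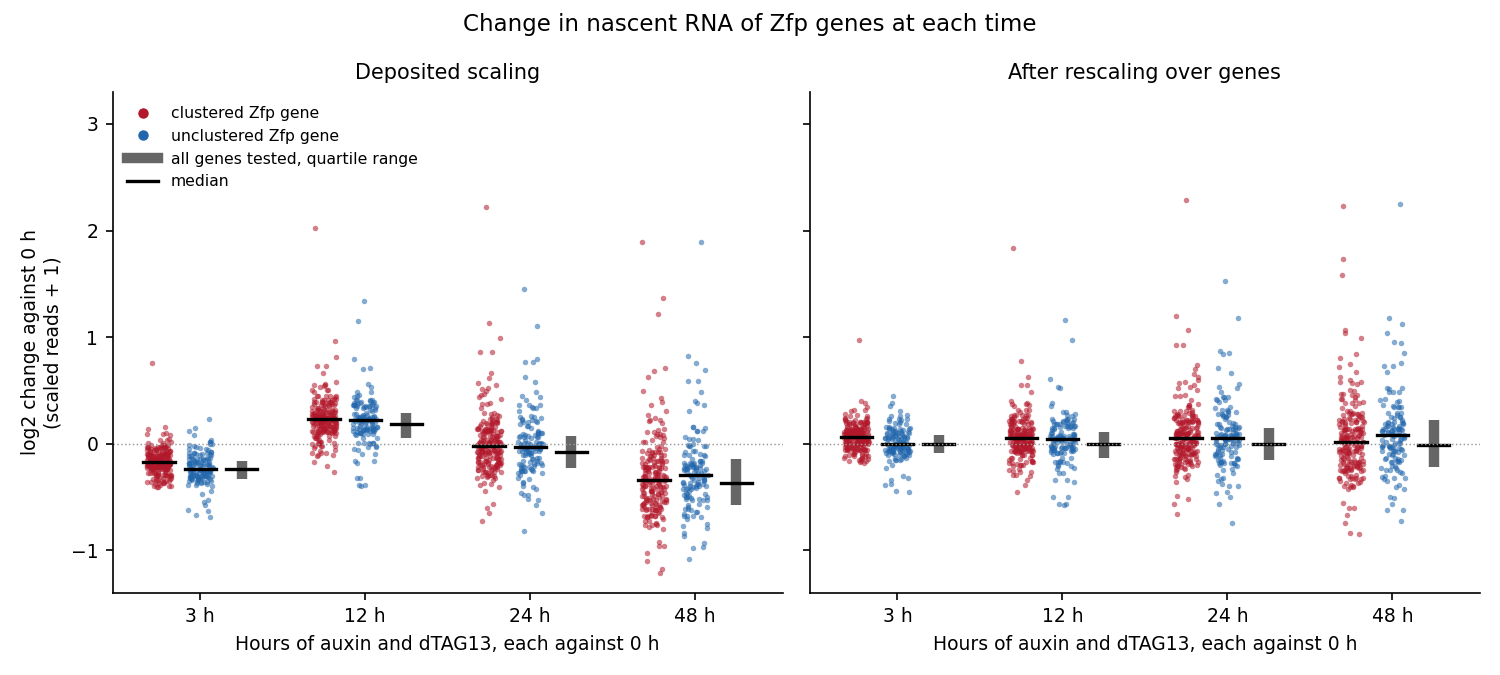
log2 change of each tested clustered (red) and unclustered (blue) Zfp gene at 3, 12, 24 and 48 h against 0 h, with the medians as black lines and the quartile range of all 15261 genes as a grey bar, with the deposited scaling on the left and after rescaling over genes on the right. The clustered medians lie within the quartile range of all genes at each time. At 3 h the clustered median of -0.17 is near the upper quartile of all genes, -0.16, whose median is -0.24. At 48 h it is -0.34 against -0.37, while single members such as Zfp872 reach 1.89.

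At 3 h, 8 of the 213 tested members fell and 1 rose. The background among all genes was 13.5% lower and 0.636% higher, against 3.76% and 0.469% of members. The 8 that fell were Zfp534, Zfp428, Zfp59, Zfp74, Zfp82, Zfp715, Zfp692 and Zfp459, with values in the 3 h libraries all below those at 0 h. A call makes such separation likely, and its share among all genes was not counted. Zfp59 had 773, 763 and 887 scaled reads at 3 h, against 1045, 1121 and 1025 at 0 h, a change of -0.40 ± 0.13 (SE, limma adjusted p = 0.0199). After rescaling 3 members fell, against 8.13% of all genes, and 13 rose, against 4.98%. After Zfp872, the member with the largest of these rises was Zfp229, with a rescaled change of 0.40 (limma adjusted p = 4.97e-09) beside 0.16 on the deposited scale, where it was not called. The 8 calls rest on single libraries: without replicate 1 or 2 at 3 h, or replicate 1 or 2 at 0 h, 0 members were lower, without replicate 3 at 0 h 1 was, and without replicate 3 at 3 h 19 were. For these and all later counts without 1 library, calls among all genes were not counted. They show how the calls depend on a library and are no result about members against other genes.

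At 12 h, 33 members rose (15.5%, with 12.9% of all genes higher) and 0 fell (with 2.07% of all genes lower). No member was lower at an unadjusted p under 0.05 either, and edgeR on the recovered reads with the deposited factors also gave 0. After rescaling 38 rose and 11 fell, with 15.8% and 14.9% of all genes, and 30 of the 33 were called higher both ways. All 33 had 12 h libraries above the 3 at 0 h, which a call makes likely and which was not counted among all genes. Zfp382 had 286, 452 and 347 scaled reads at 12 h, against 176, 192 and 180 at 0 h, a change of 0.96 ± 0.13 (SE, limma adjusted p = 6.85e-11). Zfp229 had 1792, 2377 and 1922 at 12 h, against 1202, 1290 and 1152 at 0 h, a change of 0.73 ± 0.12 (limma adjusted p = 1.78e-07). In both genes the groups did not overlap, and replicate 2 at 12 h was the highest library. Without that library 12 members were called higher, and without replicate 1 at 12 h 95 were. Without replicate 3 at 12 h the count was 15, and without replicate 1 or replicate 3 at 0 h it was 16. Whether calls among all genes moved alike was not counted.

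At 24 h, 17 members rose (7.98%, with 7.21% of all genes) and 9 fell (4.23%, with 12.2% of all genes). After rescaling 63 rose and 29 fell, with 21.7% and 21.8% of all genes, and all 26 called on the deposited scale were among them in the same direction. The count lower at 24 h on the deposited scale was 40 without replicate 2 at 24 h, 4 and 3 without replicate 1 and replicate 3 at 24 h, and 4 and 5 without replicate 2 and replicate 3 at 0 h. At 48 h, 11 members rose (5.16%, with 7.65% of all genes) and 125 fell (58.7%, with 58.4% of all genes). After rescaling the split at 48 h was 63 higher and 52 lower, with 29.8% and 29.0% of all genes. The 11 that rose were also called higher after rescaling, and 52 of the 125 that fell were also called lower. Rescaling moves all genes upward at 48 h, so kept rises and lost falls follow from it. The kept rises are therefore no independent support for the 11. Among the 135 unclustered Zfp genes 9 were called higher and 67 lower at 48 h, and after rescaling 57 higher and 29 lower. The 130 tested members with a KRAB core had a median change of -0.32 at 48 h with 6 higher and 76 lower, and the 77 without a match had -0.36 with 4 higher and 46 lower. By the size of change, 3 clustered members were at least 2-fold higher at 48 h (with 3.03% of all genes) and 4 at least 2-fold lower (with 6.50%). After rescaling 5 were at least 2-fold higher (with 4.70%) and 0 at least 2-fold lower (with 2.73%). Shares of clustered members near those of all genes are no result about these genes as a group.

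Across times, 53 of the 213 (24.9%, with 23.7% of all genes) were called at no time. Counting a call at 1 or more times, 37 rose (17.4%, with 16.1% of all genes) and 126 fell (59.2%, with 63.5%). After rescaling 85 rose (39.9%, with 36.8% of all genes) and 57 fell (26.8%, with 40.4%). The members called higher at 12, 24 and 48 h were 8 (3.76%, with 4.46% of all genes), or 29 after rescaling (13.6%, with 10.6%). The 8 were Zfp109, Zfp229, Zfp382, Zfp560, Zfp629, Zfp677, Zfp771 and Zfp872. The members called lower at both 24 and 48 h were 9 (4.23%, with 11.6% of all genes), or 25 after rescaling (11.7%, with 16.0%). The 9 were Zfp13, Zfp14, Zfp459, Zfp59, Zfp692, Zfp72, Zfp738, Zfp819 and Zfp862-ps. Zfp454, Zfp786 and Zfp873 rose at 12 h and fell at 48 h (1.41%, with 1.98% of all genes), and 2 members did so after rescaling (0.939%, with 0.885%). Any pair of opposite calls after rescaling was found in 4 members (1.88%, with 5.58% of all genes). All these comparisons share the 0 h libraries. In the authors' deposited table, 0 of the 217 members were called at 3 h, where 0.0779% of all 20541 genes were up and 0.0195% down. The authors' deposited table called Zfp872 up at 12 h (1.57% of all genes up, 0.122% down) and Zfp629, Zfp677 and Zfp872 up at 24 h (2.18% up, 1.39% down). For 48 h the authors' deposited table has Zfp560, Zfp677 and Zfp872 up and Zfp239, Zfp819, Zfp862-ps and Zfp879 down (2.78% of all genes up, 5.02% down).

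The members with the largest rises lie in separate genomic clusters. Zfp677 (chr17:21383748-21399265), a KRAB zinc finger gene with 16 fingers, had 155, 165 and 161 scaled reads at 48 h, against 59.3, 65.7 and 59.2 at 0 h. The groups did not overlap, and the change was 1.37 ± 0.16 (SE, limma adjusted p = 2.85e-17), or 1.73 after rescaling. Its mean was 61.4 ± 3.73, 63.0 ± 17.4, 108 ± 9.62, 136 ± 19.0 and 160 ± 5.01 scaled reads (SD, n = 3 each) at 0, 3, 12, 24 and 48 h. It was higher at each time from 12 h on.

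Zfp560 (chr9:20345136-20385158), with 15 fingers and a KRAB core, had 1095, 1187 and 1293 scaled reads at 48 h, against 510, 527 and 497 at 0 h. That was a change of 1.22 ± 0.13 (SE, limma adjusted p = 3.68e-20), or 1.58 after rescaling, with no overlap. Its changes at 12 and 24 h were 0.56 and 0.55, so the step between 24 and 48 h was larger than that between 12 and 24 h.

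Zfp872 (chr9:22188166-22202123), with 12 fingers and a KRAB core, was the least transcribed tested member per kb at 0 h. It was singled out after its values were seen, since its level fell under the limit set for named members, the lowest 25% of tested genes at 71.3 scaled reads. Its libraries held 22.9, 21.7 and 30.6 scaled reads at 48 h, against 4.88, 8.32 and 5.14 at 0 h, where each library had 6 to 10 reads. Its mean of 6.11 at 0 h is under the minimum of 10, so it was tested only through its later values and has no test with the minimum set at 0 h alone. The p-values of Zfp872 at any time are therefore no independent support for a rise. The change of 1.89 ± 0.27 (SE, limma adjusted p = 2.53e-11; 2.23 after rescaling) on the log2(scaled reads + 1) scale understates the ratio at such low values. It was already 2.02 ± 0.27 at 12 h (limma adjusted p = 3.00e-12). At 24 h the libraries held 31.6, 38.4 and 25.7 scaled reads, a change of 2.22 ± 0.27 (limma adjusted p = 4.69e-15). Groups were without overlap at 12, 24 or 48 h, while the call of 0.76 at 3 h had overlapping groups.

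On the deposited scale, the other members that rose at 48 h did so by less than 1 on the log2 scale. Zfp382 (chr7:30121948-30135032) had 280, 283 and 287 scaled reads at 48 h, against 176, 192 and 180 at 0 h, a change of 0.63 ± 0.13 (SE, limma adjusted p = 1.37e-05). Its mean of 362 ± 84.1 at 12 h was above that of 283 ± 3.74 at 48 h (SD, n = 3 each). After rescaling its changes were 0.78, 0.93 and 0.99 at 12, 24 and 48 h, so that drop is seen on the deposited scale only. Zfp229 (chr17:21733724-21748969), in the same genomic cluster as Zfp677, had 1574, 1711 and 1634 at 48 h, against 1202, 1290 and 1152 at 0 h, a change of 0.43 ± 0.12 (limma adjusted p = 0.00129). Zfp9, Zfp629, Zfp771 and Zfp109 rose by 0.71, 0.39, 0.36 and 0.31. After rescaling these rises were 1.07, 0.75, 0.72 and 0.67, and that of Zfp229 was 0.80. Zfp109 and Zfp629 passed the threshold narrowly, at limma adjusted p = 0.0457 and 0.0270. Zfp467, a regulator of fat and bone cell formation, rose by 0.68, with 52.1 ± 5.17 scaled reads at 48 h and 32.6 ± 8.23 at 0 h (SD, n = 3 each). Zfp652os, which had no coding transcript, rose by 0.49. These 2 were under the level limit for named genes and are given to complete the 11.

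The largest falls were near 2-fold. Zfp239 (chr6:117863077-117872766), also known as Mok2, had 84.9, 122 and 97.8 scaled reads at 48 h, against 207, 248 and 249 at 0 h. The groups did not overlap, and the change was -1.21 ± 0.14 (SE, limma adjusted p = 1.26e-16), or -0.85 after rescaling. It was not called at the earlier times on the deposited scale. Zfp819 (chr7:43607169-43618279), whose protein is known to bind TRIM28, had 191, 221 and 222 at 48 h, against 427, 501 and 435 at 0 h, a change of -1.10 ± 0.13 (limma adjusted p = 1.51e-15). Its means were 454 ± 40.6, 371 ± 21.4, 427 ± 55.7, 303 ± 56.0 and 211 ± 17.3 (SD, n = 3 each) at 0, 3, 12, 24 and 48 h, and after rescaling its called changes were -0.27, -0.52 and -0.74 at 12, 24 and 48 h.

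The pseudogene Zfp862-ps had 102, 104 and 105 scaled reads at 48 h, against 212, 211 and 215 at 0 h, a change of -1.03 ± 0.14 (SE, limma adjusted p = 4.27e-12). Zfp692, Zfp14 and Zfp747 fell by 0.96, 0.96 and 0.92 at 48 h, and Zfp286 and Zfp595 by 0.80 and 0.78. All 6 were also called lower after rescaling, with changes of -0.67, -0.60, -0.60, -0.56, -0.43 and -0.41. Zfp747 shares 36.8% of its stretches with other genes. Zfp879, with 10.6 ± 0.261 scaled reads at 48 h and 25.6 ± 4.60 at 0 h, changed by -1.18 ± 0.26 (limma adjusted p = 2.19e-05) and is named although under the level limit, to complete the 4 with at least a 2-fold fall. Zfp459 (chr13:67405713-67421418) was lowest at 24 h, with 241, 355 and 255 scaled reads, against 458, 482 and 455 at 0 h. Its change was -0.73 ± 0.13 at 24 h (limma adjusted p = 4.80e-07) and -0.68 ± 0.13 at 48 h (limma adjusted p = 1.46e-06), both without overlap.

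**Figure D2:**
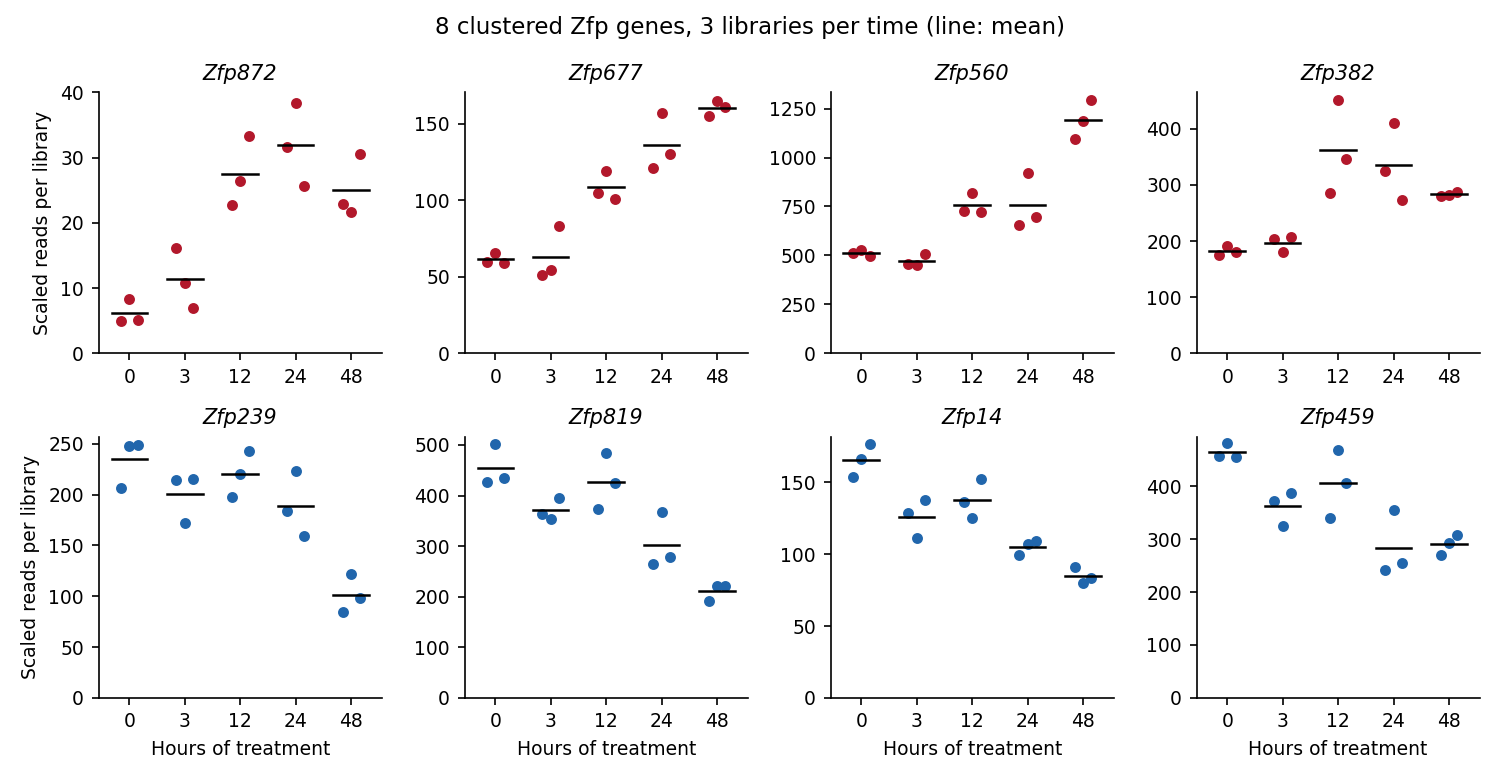
Scaled reads in each library (points) and their mean (line) at 0, 3, 12, 24 and 48 h for 4 members that rose (red) and 4 that fell (blue). The 48 h libraries of Zfp677 lie between 155 and 165, all above 0 h, and those of Zfp239 between 84.9 and 122, all below 0 h.

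Within genomic clusters members differed widely. Over the 18 clusters with at least 4 tested members, the median change at 48 h ran between -0.61 and -0.01. The arrays with the highest medians at 48 h were that of Zfp677 on chromosome 17 (chr17:21383748-22456689, 15 members), at -0.02, and that of Zfp954 on chromosome 7 (chr7:7114683-7209998, 4 members), at -0.01. In the Zfp677 array 2 members rose and 3 fell, and after rescaling 12 rose and 0 fell with a median of 0.35. Of all genes 7.65% were higher and 58.4% lower at 48 h, or 29.8% and 29.0% after rescaling. In the Zfp954 array 3 of the 4 members rose at 12 h and 2 at 24 h (with 12.9% and 7.21% of all genes), and none was called at 48 h. After rescaling 2 of them rose at 12 h and 3 each at the later times, with a median change of 0.35 at the last. The shares of all genes higher after rescaling were 15.8%, 21.7% and 29.8% at 12, 24 and 48 h. Zfp954 had 213, 292 and 216 scaled reads at 24 h, against 145, 163 and 154 at 0 h, a change of 0.62 ± 0.14 (SE, limma adjusted p = 1.04e-04). Zfp418, the highest of that array, rose by 0.54 at 12 h (limma adjusted p = 8.90e-04).

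The lowest medians were those of the Zfp60 array (chr7:27731409-28014115, 6 members), at -0.61, and the Zfp787 array (chr7:6131489-6396637, 6 members), at -0.58, each with 5 members lower. After rescaling 4 members fell in each, with 0 higher in the first and 1 in the second. For these and the arrays below, 58.4% of all genes were lower at 48 h, or 29.0% after rescaling. Zfp59 in the first array had 628, 624 and 677 scaled reads at 48 h, against 1045, 1121 and 1025 at 0 h, a change of -0.73 ± 0.13 (limma adjusted p = 7.83e-08), with 52.4% of its stretches shared with other genes. The second chromosome 17 array (chr17:32765497-33394637, 12 members), which opens with Zfp871, had a median of -0.51 with 10 lower. After rescaling 5 of the 12 fell and 1 rose. In the 24-gene array on chromosome 13 (chr13:67038594-67827000) 14 fell and 0 rose at 48 h, and after rescaling 5 fell and 5 rose. In the 15-gene array of chromosome 7 (chr7:29768552-30169727) Zfp382 rose while 11 members fell, among them Zfp14 and Zfp74, which fell by 0.96 and 0.65. After rescaling 4 members of that array rose and 5 fell.

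**Figure D3:**
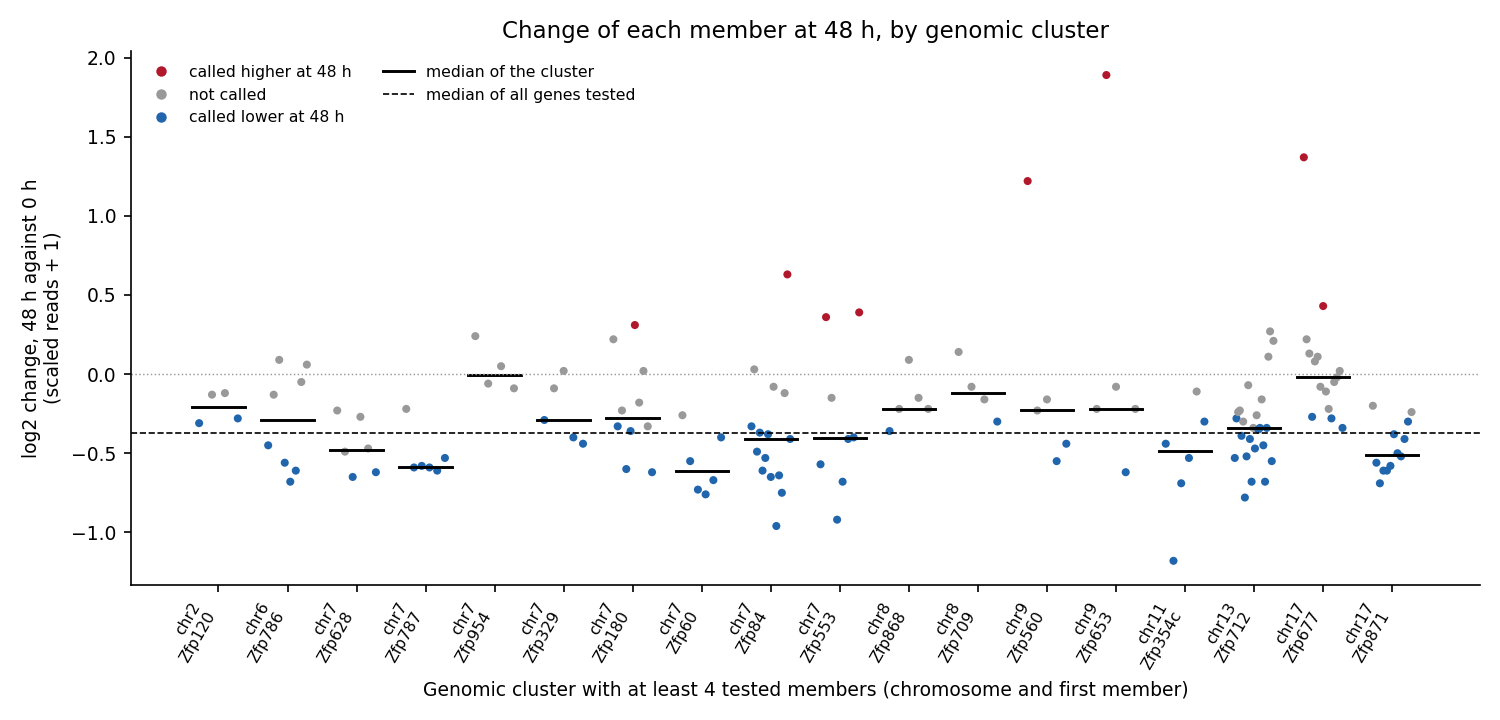
log2 change at 48 h against 0 h of each member in the 18 genomic clusters with at least 4 tested members, coloured by call, with each cluster's median as a line and the median of all genes as a dashed line. The medians run from -0.61 to -0.01, and single members such as Zfp872 at 1.89 and Zfp560 at 1.22 lie far above their neighbours.

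Zfp809, Zfp568, Zfp932 and Zfp445 have published targets, and were not called at 48 h on the deposited scale. Zfp809, which binds the proline primer binding site of retroviruses, had 1388, 1501 and 1482 scaled reads at 48 h, against 1543, 1649 and 1423 at 0 h. The groups overlapped, with a change of -0.08 ± 0.12 (SE, limma adjusted p = 0.588) and a rescaled change of 0.29. Zfp568, which represses a placental transcript of Igf2 and was the highest member of its array, had 5412, 5536 and 5575 at 48 h, against 5575, 6227 and 5673 at 0 h, a change of -0.08 ± 0.12 (limma adjusted p = 0.571) and of 0.28 after rescaling. Zfp932, a repressor of endogenous retroviruses, rose by 0.55 at 12 h (limma adjusted p = 4.56e-04) and changed by -0.14 ± 0.13 at 48 h (limma adjusted p = 0.331), with 42.0% of its stretches shared. Zfp445, which helps to keep genomic imprints, rose by 0.36 at 12 h (limma adjusted p = 0.0342) and changed by -0.19 ± 0.13 at 48 h (limma adjusted p = 0.177). For these 4 the direction at 48 h turns after rescaling, where all 4 were called higher.

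Zfp708, which binds RMER19B elements, and Zfp961 fell by 0.28 and 0.30 at 48 h (limma adjusted p = 0.0448 and 0.0243), and both turn to 0.08 and 0.06, uncalled, after rescaling. Zfp429 fell by 0.41 at 48 h (limma adjusted p = 0.0120), with -0.05, uncalled, after rescaling. In the same chromosome 13 array Zfp455, Zfp456, Zfp457 and Zfp458 changed by -0.23, -0.07, -0.30 and -0.39, of which that of Zfp458 was called, with overlapping groups and -0.03, uncalled, after rescaling. Zfp51 and Zfp54, beside Zfp677, rose by 0.35 and 0.42 at 12 h, close to the threshold (limma adjusted p = 0.0464 and 0.0495). After rescaling these changes were 0.17, called, and 0.25, uncalled. At 48 h the 2 genes changed by 0.13 and 0.22, uncalled, against 0.49 and 0.58, called, after rescaling. Zfp53, Zfp820, Zfp619 and Zfp110 changed by -0.27, -0.11, -0.31 and -0.09 at 48 h, with calls for Zfp53 and Zfp619, and all 4 lie above 0 after rescaling.

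The highest members of the remaining arrays did not move far. Zfp180 rose by 0.42 at 12 h and 0.33 at 24 h and changed by 0.22 ± 0.12 at 48 h (limma adjusted p = 0.101), or 0.58 after rescaling, where it was called higher. Zfp266 and Zfp553 fell by 0.55 and 0.57 at 48 h and by 0.19 and 0.21 after rescaling. Zfp850, Zfp354c, Zfp345 and Zfp65 fell by 0.40, 0.44, 0.28 and 0.34 at 48 h and were not called after rescaling. Zfp777, Zfp787, Zfp865, Zfp866 and Zfp871 changed by -0.05 to -0.27 on the deposited scale without a call, and lie at 0.10 to 0.31 after rescaling. Zfp534 fell by 0.39 at 3 h and shares 68.4% of its stretches.

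As a set, clustered members kept nearly the same distance from other Zfp genes. In each library the mean log2(scaled reads + 1) of the 213 clustered minus that of the 135 unclustered Zfp genes was taken, in which the library factor nearly cancels. It was -1.176 ± 0.015, -1.114 ± 0.004, -1.154 ± 0.012, -1.164 ± 0.005 and -1.223 ± 0.019 (SD, n = 3 each) at 0, 3, 12, 24 and 48 h. The 3 h libraries lay above and the 48 h libraries below those at 0 h, without overlap, by 0.062 and -0.047. Against all genes tested the same difference was -0.087 ± 0.012, -0.015 ± 0.010, -0.033 ± 0.016, -0.026 ± 0.009 and -0.089 ± 0.017 (SD, n = 3 each) in the same order of times. The libraries at 3, 12 and 24 h lay above those at 0 h, without overlap, by 0.072, 0.054 and 0.061. The 48 h value lay within the spread of the 0 h libraries. These are descriptions with no test.

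**Figure D4:**
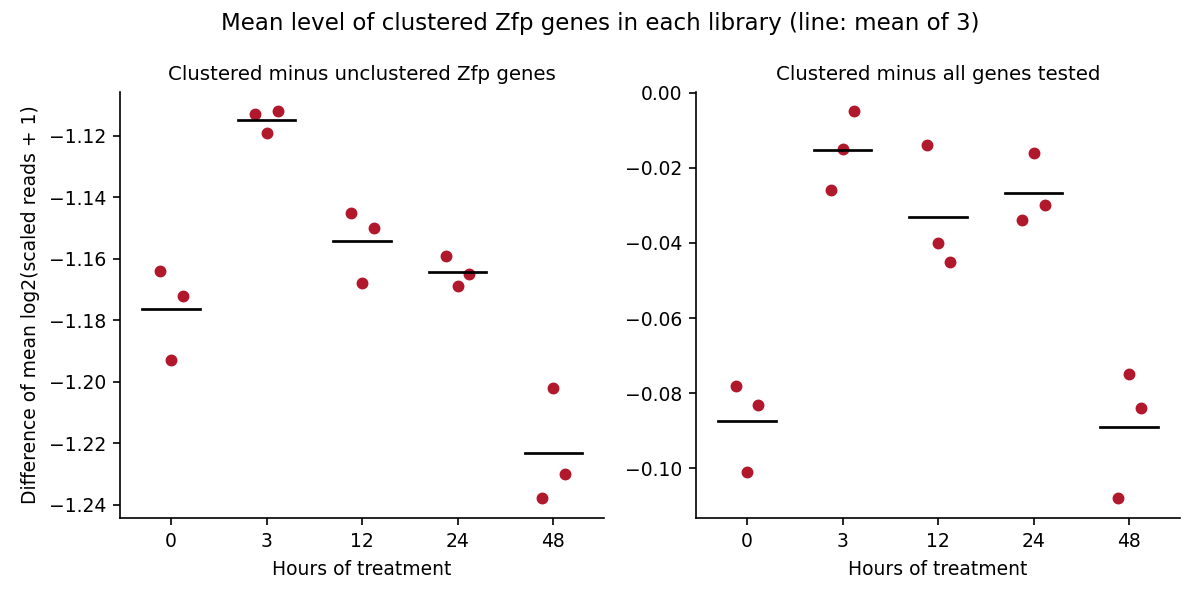
Mean log2(scaled reads + 1) of clustered members minus that of unclustered Zfp genes (left) and of all genes tested (right), 1 point per library, with the mean of 3 as a line, at 0, 3, 12, 24 and 48 h. The axes do not start at 0, and the means on the left span -1.223 to -1.114.

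The table also lists repeat copies and non-coding units that are transcribed. Each kind went through the same test, and those within 10000 bp of a member were taken. Of all tested repeat copies 24.6% rose at least 2-fold at 48 h, and of all tested non-coding units 25.3%. Such a repeat copy lay by 16 of the 213 clustered members (7.51%), 8 of the 135 unclustered Zfp genes (5.93%) and 580 of the 15261 genes tested (3.80%). Such a non-coding unit lay by 27 clustered members (12.7%), 11 unclustered Zfp genes (8.15%) and 1114 genes tested (7.30%). A unit silent at 0 h is tested only if it rises, so the counts are no support for a difference. With units kept by their level at 0 h alone they are 6 and 14 clustered members. This last count was not made for unclustered Zfp genes or all genes, so it cannot be set against the shares above.

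Zfp872 and Zfp560 each have a retroviral copy at hand. An IAPEz-int copy on the opposite strand (chr9:22177827-22184251) lies 3915 bp before Zfp872. It had 230, 301 and 261 scaled reads at 48 h and was listed at 0 in the 3 libraries at 0 h, which makes it at least 317-fold higher against a floor of 3 reads over those libraries. It had 0, 20.9 and 12.3 at 12 h, which overlaps the 0 h group, and 101, 162 and 133 at 24 h. Being silent at 0 h, the copy reached the minimum level for testing only through its later values. The p-value at 12 h is therefore no independent support for a rise at that time. The change at 12 h was 2.73 ± 0.82 (SE, limma adjusted p = 0.0246), beside 2.02 for Zfp872. Whether the 2 changes are related was not tested. A MERVL-int copy on the same strand (chr9:20368382-20373669) lies inside Zfp560 and had 213, 263 and 254 scaled reads at 48 h, against 54.5, 45.7 and 63.4 at 0 h, a change of 2.14 (limma adjusted p = 5.89e-06). Whether the gene's value includes the copy's reads is not stated. Zfp560 less the copy had 948 ± 80.8 scaled reads at 48 h and 457 ± 23.9 at 0 h (SD, n = 3 each), a ratio of 2.08, against 2.32 with it. The summed 2-cell-like markers, which are known to rise with MERVL, were higher at 48 h as given above, although most of those tested reached the minimum level only through the later times. Their part in the change of Zfp560 was not tested.

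Non-coding units also lay by Zfp677 and Zfp382. The unit on the opposite strand 8547 bp from Zfp677 had 45.0, 51.1 and 48.1 scaled reads at 48 h, against 11.4, 9.98 and 12.0 at 0 h, a change of 2.02 (limma adjusted p = 8.29e-09). The unit on the same strand 2147 bp before Zfp382 had 185, 173 and 148 at 48 h, against 12.2, 9.15 and 12.0 at 0 h, a change of 3.81 (limma adjusted p = 1.13e-17). At 3 h the unit was higher by 0.99 (limma adjusted p = 8.05e-04), while Zfp382 was at 0.10, uncalled, on the deposited scale and at 0.34, called, after rescaling (limma adjusted p = 0.00129). Whether they are related was not tested. In 8 members a non-coding unit on the opposite strand that overlaps the gene rose by 1.00 to 5.81 at 48 h. These units were picked for a rise of at least 2-fold. That of 5.81, at Zfp868, had a mean of 8.59 at 0 h, under the minimum of 10. The members changed by -0.36 to 0.14, none of them called higher (with 7.65% of all genes) and 2 called lower (with 58.4%). After rescaling those members lay at 0.00 to 0.50. At Zfp53 the overlapping unit (chr17:21484001-21517001) had 1858, 1968 and 2006 scaled reads at 48 h, against 436, 492 and 419 at 0 h, while Zfp53 had 464, 486 and 494 at 48 h, against 554, 624 and 571 at 0 h.

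**Figure D5:**
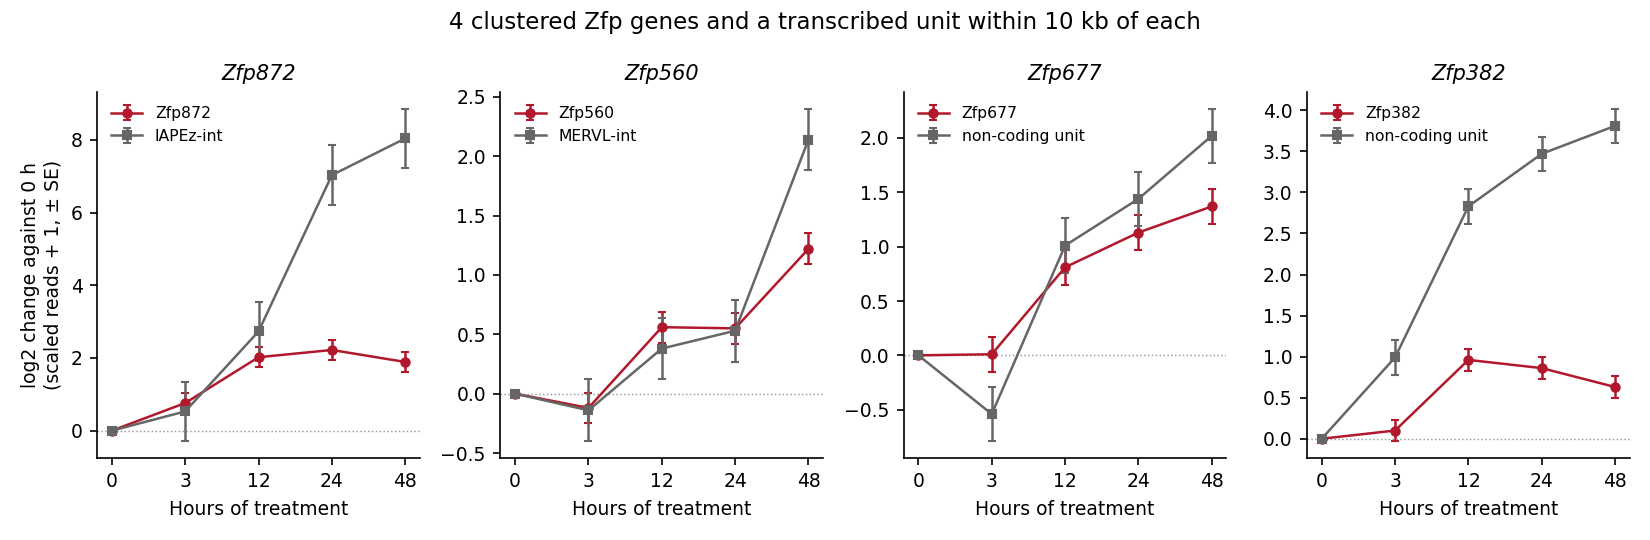
log2 change against 0 h (± SE) of Zfp872, Zfp560, Zfp677 and Zfp382 (red) and of a transcribed unit within 10 kb of each (grey) at 0, 3, 12, 24 and 48 h, with an axis of its own per panel. The MERVL-int copy reaches 2.14 and Zfp560 1.22 at 48 h, and the unit by Zfp382 is at 0.99 at 3 h with Zfp382 at 0.10 on the deposited scale plotted here. The height of the IAPEz-int line depends on the pseudocount, as it had 0 reads at 0 h.

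Several members overlap another annotated gene, and the sources used here give neither the counting rule for such reads nor the use of strand. Zfp783 and Zfp956 overlap each other on 1 strand, Zfp708 overlaps Rslcan18 on 1 strand, and Zfp85 lies opposite Zfp85os. Zfp872, Zfp809, Zfp653, Zfp599 and Zfp810 all overlap the span the table gives to Mir680-2. Values of these members may hold reads of the other gene.

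The genes through which KRAB zinc finger proteins act were followed with a list of 37 tested members of the H3K9me3 silencing pathway. At 48 h 30 fell and 0 rose, with 0 higher by unadjusted p under 0.05 and by edgeR too, and after rescaling 11 fell and 8 rose. The shares of all genes at 48 h were 58.4% lower and 7.65% higher, or 29.0% lower and 29.8% higher after rescaling. The list had 9 members lower at 3 h (with 13.5% of all genes), and after rescaling 8 lower and 4 higher. It had 6 higher at 12 h (with 12.9%), and after rescaling 9 higher and 6 lower. For 24 h the list had 2 lower (with 12.2%), and after rescaling 11 lower and 8 higher. Trim28, the co-repressor that KRAB domains bind, had 2002 scaled reads at 48 h and 3166 at 0 h, a change of -0.66 ± 0.12 (SE, limma adjusted p = 5.73e-07) and of -0.30 after rescaling. Ehmt2, a lysine 9 dimethyltransferase, Cbx1, a heterochromatin protein of the HP1 family, and Mphosph8, a subunit of the HUSH complex, fell by 0.71, 0.64 and 0.55, and by 0.35, 0.27 and 0.19 after rescaling. Suv39h2, which is -/- in every group and whose deleted stretch the labels do not give, had 803 scaled reads at 48 h and 1091 at 0 h. It fell by 0.44, with -0.08, uncalled, after rescaling. Setdb1 and Suv39h1 changed by -0.21 and -0.08 (limma adjusted p = 0.129 and 0.562). After rescaling both were called higher, at 0.15 and 0.28 (limma adjusted p = 0.00377 and 5.73e-05). The largest rescaled rises of the list were those of Atf7ip and Atf7ip2, at 0.46 and 0.45. The median change of the list was -0.41, beside -0.34 for clustered members and -0.37 for all genes.

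Among unclustered Zfp genes the largest rises at 48 h were those of Zfp37, Zfp558 and Zfp318 and the largest falls those of Zfp385c, Zfp36l2 and Zfp661. After rescaling they changed by 2.25, 1.18, 1.12, -0.73, -0.62 and -0.62, beside 2.23 for Zfp872 and -0.85 for Zfp239 among clustered members. Zfp36l2 is in the set by its symbol and had 0 C2H2 fingers. Whether the 2 sets differ in this was not tested.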

How the data were processed

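The data are TT-seq reads of 15 libraries in 30 sequencing runs. The submitters' processing notes name STAR 2.5.2a, DESeq2 and deepTools as tools and mm10, or GRCm38, as the build. The deposited signal per transcription unit is reads divided by 1 size factor per library, made by the authors. The design text names a yeast RNA spike-in for adjusting signal, but how the factor was computed from it, the counter, its annotation and its use of strand are not stated. Whole reads were recovered from the steps of the values for at least 99.9974% of values (tolerance 0.05). The deposited table also holds the authors' up and down calls.

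Groups were the 5 times. Genes with a mean of at least 10 scaled reads were fitted by limma 3.58.1 (R 4.3.3) with an intensity trend on log2(value + 1), over all 15 libraries, each later time against 0 h, with Benjamini-Hochberg adjustment at 0.05. edgeR 4.0.16 on the recovered reads called 67, 2132, 1098 and 1166 genes up and 2214, 360, 1789 and 8881 down at the 4 later times in order. Alternatives were rescaling over genes by median ratios, edgeR with TMM, DESeq2 1.42.0, another pseudocount, other minimums, fewer libraries, no trend, a replicate block and a shorter distance. Tested on simulated 48 h against 0 h data over 15261 genes, 46 of 50 genes set 2-fold up and 46 of 50 set 2-fold down were called, as were 50 of 50 at 4-fold each way, with 10 unchanged genes called. The simulated libraries had exactly known factors and no shift shared by all genes of a library. Their few false calls therefore say nothing of calls under such a shift. Python 3.11.15, pandas 2.3.3, numpy 2.4.6 and matplotlib 3.10.9 were used.

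Members and lists were chosen with earlier results of these data known. Named members are, at each later time, those called with libraries that do not overlap 0 h and a mean above the lowest 25% of tested genes, the 8 largest changes each way at 48 h and 4 each way at other times. Added were the highest member of each genomic cluster with at least 4 tested members and members with a published role, and 6 unclustered Zfp genes. Finger and KRAB counts come from translated GENCODE transcripts and promoters from RefSeq.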

Additional observations from a re-analysis of the deposited data

Results flagged for a closer look

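For 4 of the 213 members (1.88%, with 5.58% of all genes) the rescaled changes at 2 times lay on opposite sides of 0, each called. They were picked for these opposite calls, so the differences from a direct limma contrast between the times restate the choice and are no independent support. All times share the 0 h libraries. Zfp534 was at 0.17 at 48 h and -0.15 at 3 h, a difference of 0.32 ± 0.04 (SE), with 68.4% of its 50-base stretches shared with other genes. Zfp94 was at -0.26 at 48 h and 0.31 at 3 h, a difference of -0.58 ± 0.09. Zfp454 was at -0.32 at 48 h, against 0.26 at 3 h and 0.21 at 12 h, differences of -0.58 ± 0.08 and -0.53 ± 0.08. Zfp2 was at -0.17 at 48 h and 0.16 at 12 h, a difference of -0.33 ± 0.05.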

How the results depend on the processing

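Counts of calls depend on the library factor and, at 3, 12 and 24 h, on single libraries. Rescaling over genes, edgeR with TMM and DESeq2 called 13, 12 and 7 clustered members higher and 3, 3 and 2 lower at 3 h (1 and 8 with the deposited factor). They called 11, 13 and 10 lower at 12 h (0 with the deposited factor), 63, 64 and 54 higher and 29, 27 and 22 lower at 24 h (17 and 9), and 63, 61 and 58 higher and 52, 54 and 42 lower at 48 h (11 and 125). The count higher at 3 h was 0 by edgeR with the deposited factors, with a pseudocount of 5, with no minimum, with the minimum at 0 h alone and with the compared libraries alone. The count lower at 3 h was 4 with no minimum, 43 with the compared libraries alone and 0 without the intensity trend, and without that trend 20 were higher at 12 h (33 with it). The cause of these moves was not tested beyond the settings themselves.

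Replicate numbers did not pair the libraries: deviations of same-numbered libraries correlated at -0.0425 to 0.079 over 30 pairs, 0 of them over 0.1. With a replicate block 17 members were lower at 3 h, and of 65 results for named genes 64 kept their direction and their side of the threshold.

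Without 1 library the counts higher ran from 0 to 1 at 3 h, 12 to 95 at 12 h, 13 to 16 at 24 h and 8 to 10 at 48 h, and the counts lower from 0 to 19, 0 to 0, 3 to 40 and 90 to 115. The matching counts among all genes were not made. The change in the clustered minus unclustered difference ran from 0.054 to 0.068, 0.014 to 0.029, 0.004 to 0.018 and -0.057 to -0.039.

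Of the 65 named results 30 kept direction and call under every alternative run, 17 lost a call and 9 gained one in at least 1. In 20 the 48 h change turned from below to above 0 by rescaling, TMM and DESeq2: Zfp110 (0.28, 0.26, 0.27), Zfp345 (0.08, 0.07, 0.08), Zfp445 (0.18, 0.16, 0.18), Zfp455 (0.13, 0.12, 0.13), Zfp456 (0.29, 0.27, 0.29), Zfp457 (0.05, 0.04, 0.05), Zfp53 (0.09, 0.07, 0.09), Zfp568 (0.28, 0.27, 0.28), Zfp619 (0.05, 0.04, 0.05), Zfp65 (0.02, 0.01, 0.02), Zfp708 (0.08, 0.06, 0.08), Zfp777 (0.31, 0.29, 0.30), Zfp787 (0.15, 0.13, 0.15), Zfp809 (0.29, 0.27, 0.28), Zfp820 (0.25, 0.24, 0.25), Zfp865 (0.10, 0.08, 0.10), Zfp866 (0.14, 0.13, 0.14), Zfp871 (0.16, 0.15, 0.17), Zfp932 (0.22, 0.21, 0.22) and Zfp961 (0.06, 0.05, 0.06). Zfp777 ran from -0.13 without replicate 1 at 0 h to 0.07 without replicate 2 at 0 h. A distance of 100000 bp leaves 194 members. Depth limits Zfp872 most, with 6 to 10 reads per library at 0 h.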
